A study of Drosophila melanogaster with 3 samples.

Results

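The genes described here are kirre, rst, sns and hbs, 4 of the 13945 protein-coding genes annotated on the chromosome arms 2L, 2R, 3L, 3R, 4 and X. They were selected on the peak lists themselves, with their peaks in view, as kirre and 3 related adhesion genes of muscle formation. Their counts and signals are therefore given as a description, without a test. In the dm6 build kirre (FBgn0028369) covers X:2740384-3134532 on the plus strand, and rst (FBgn0003285) covers X:2950399-2973834 on the minus strand, wholly inside kirre. The gene sns (FBgn0024189) covers 2R:8798489-8856091 and hbs (FBgn0287864) covers 2R:15011396-15042134, both on the plus strand. Summits were counted inside each gene and within 5 kb of its ends.

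Sites bound by the zinc finger protein az2 were mapped by ChIP-seq, in which sheared chromatin is pulled down with an antibody, here one against green fluorescent protein (GFP), and its DNA is sequenced. The chromatin came from embryos of both sexes, 0 to 16 hours old, of 1 transgenic Drosophila melanogaster line that stably makes az2 carrying GFP at its C-terminal end. The 3 biological replicates form 1 group, and every one carries the tagged protein, so there was no contrast between groups and no untagged or control sample was analysed here beside them. What drives the transgene is not given in the sources used here. Whole embryos mix all tissues, so a peak does not say in which cells it arose, and the peak lists hold no expression values with which muscle cells could be checked. The relaxed lists (peaks together with background) held 30000, 22372 and 30000 peaks in replicates 1, 2 and 3, and 27145 peaks in the pooled reads. Of the pooled peaks, 5786 passed the threshold of the irreproducible discovery rate (IDR), which compares the ranks of peaks between replicates. These are the 5786 pooled peaks with the highest signal values, so a single one need not repeat in every replicate. The depth in reads cannot be read from these lists.

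As background, body wall muscles of the fly embryo form when fusion-competent myoblasts fuse with founder cells. Kirre (also called Dumbfounded) and Rst (Roughest) are membrane proteins of the immunoglobulin superfamily that act largely redundantly in founder cells as attractants and adhesion receptors. Sns (Sticks and stones) and Hbs (Hibris) are related immunoglobulin proteins of the fusion-competent myoblasts that bind them across the cell contact. The same adhesion partners also act in the developing eye and in nephrocytes, the filtering cells of the fly, and in mammals Kirre and Rst correspond to the Neph proteins and Sns and Hbs to nephrin.

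By count, IDR peaks of tagged az2 were numerous along kirre, a gene of 394 kb, and few at the other members, which are 23.4 to 57.6 kb long. Counts per 100 kb are given further below. The kirre window held 24 IDR summits (the single positions where a peak is highest), the most of all 13945 protein-coding genes. Of these, 23 lay inside the gene and 1 in its flank. The signal value of the authors' peak caller (column 7 of the lists, whose scale is not described in them) ran from 133 to 867 at these summits, with a median of 244, against a median of 233 over all IDR peaks. The highest, 867 at X:3097215, ranked 258 among the IDR peaks and was the only kirre summit among the 578 highest of the 5786. The 3 highest summits of kirre lay 357, 3.87 and 46.4 kb from the start of the gene, and the sequence within 100 bp of each is given because these carry the largest signals of the locus. The window of the summit upstream of rst follows, as the nearest IDR summit to that gene, and then the kirre window with the most fixed motifs, 4 of the 12 searched. All are plus strand, dm6, from the RefSeq genome, lie outside exons, and have their matches to the searched motifs in capitals; the first window had none.
kirre, X:3097115-3097315: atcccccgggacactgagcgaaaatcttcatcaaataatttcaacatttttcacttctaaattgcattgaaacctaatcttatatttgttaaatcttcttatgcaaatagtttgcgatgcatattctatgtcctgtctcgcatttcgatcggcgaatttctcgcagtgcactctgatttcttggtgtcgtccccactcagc
kirre, X:2744154-2744354: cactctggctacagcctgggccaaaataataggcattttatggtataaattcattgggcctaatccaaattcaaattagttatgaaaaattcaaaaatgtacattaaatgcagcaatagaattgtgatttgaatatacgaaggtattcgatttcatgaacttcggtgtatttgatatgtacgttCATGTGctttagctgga
kirre, X:2786661-2786861: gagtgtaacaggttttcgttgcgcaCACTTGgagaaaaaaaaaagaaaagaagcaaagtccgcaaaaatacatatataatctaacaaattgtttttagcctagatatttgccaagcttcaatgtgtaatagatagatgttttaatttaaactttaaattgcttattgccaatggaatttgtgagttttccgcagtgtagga
kirre and rst, X:2978139-2978339: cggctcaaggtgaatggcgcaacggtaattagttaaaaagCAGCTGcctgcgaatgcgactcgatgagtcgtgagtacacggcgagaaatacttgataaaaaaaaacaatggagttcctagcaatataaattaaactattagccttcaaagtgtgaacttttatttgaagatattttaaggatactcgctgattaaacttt
kirre, X:2757493-2757693: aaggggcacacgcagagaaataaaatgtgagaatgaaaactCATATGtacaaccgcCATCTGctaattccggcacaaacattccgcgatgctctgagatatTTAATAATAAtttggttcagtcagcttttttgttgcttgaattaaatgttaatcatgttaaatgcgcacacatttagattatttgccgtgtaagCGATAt

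**Figure D1:**
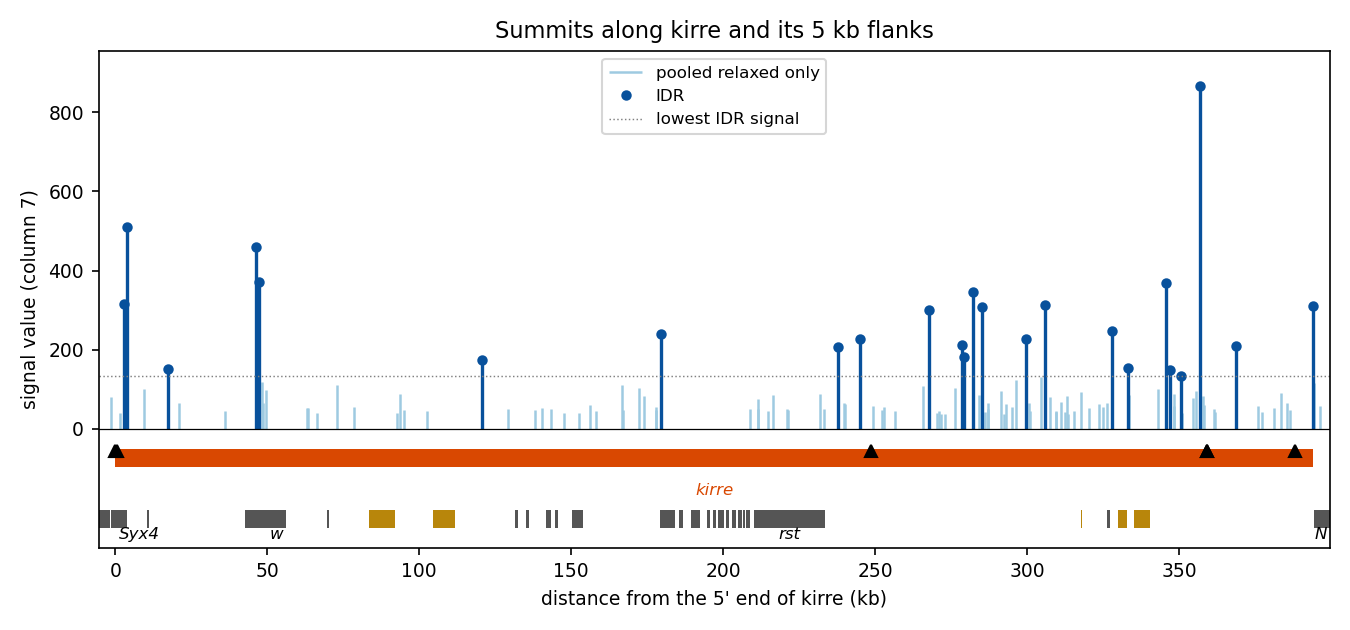
Signal value (column 7 of the pooled and IDR lists) of every summit along kirre against the distance from its start in kb; dark stems with points are the 24 IDR summits, light stems the 99 summits of the pooled relaxed list alone, and the dotted line is the lowest IDR signal, 133. Under the axis, the orange bar is kirre with its 6 annotated start sites as triangles, grey bars are other genes and gold bars transposable elements. The summits crowd toward the right, and the highest stem, 867, stands at 357 kb.

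The summits were unevenly spread along kirre. In 3 equal stretches of 131 kb the first held 6 IDR summits, the middle one 3 and the last 14. The summits of the pooled relaxed list that missed the IDR threshold numbered 17, 28 and 51 in the same stretches, so the last was the fullest in both lists while the middle one was the emptiest in IDR summits alone. Annotated transcripts of kirre start at 6 sites. The first pair lies 421 bp apart at the start of the gene, the third site 248667 bp from that start, a close pair 359166 and 359198 bp from it, and the last site 388255 bp from it. Before the third site there were 9 IDR summits in 249 kb (3.62 per 100 kb), and from it to the end of the gene 14 in 145 kb (9.62 per 100 kb). Below the threshold the same stretches held 16.5 and 37.8 summits per 100 kb. Over the chromosome arms as a whole the density was 4.32 IDR summits and 20.3 pooled relaxed summits per 100 kb. The 20.3 includes the IDR summits, so it cannot be set beside the 16.5 and 37.8, which leave them out. Counted in the same way, the whole kirre window held 5.94 and 30.4 per 100 kb.

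Neighbouring IDR summits of kirre lay 738 to 73647 bp apart, with a median of 10867 bp over the 23 gaps. In 3 gaps the distance was under 1 kb: 964 bp between the first pair at the start of the gene, 738 bp between the pair in CG32795, and 913 bp between X:3018859 and X:3019772. In 7 gaps it was under 5 kb and in another 7 over 20 kb. The densest run held 4 summits in 6.86 kb, from X:3018859 to X:3025718, with signals of 213, 181, 345 and 307. The 3 widest gaps, of 58297 to 73647 bp, all lay in the first 238 kb.

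The annotation places 21 other protein-coding genes inside kirre, 20 of them before the third start site of kirre and 1, CG4116, after it. Of the 24 IDR summits, 19 lay in an intron of kirre and in no other gene, 4 in an intron of kirre and also in an intron of another gene, 1 in intergenic DNA, and 0 in an exon. Annotated transposable elements cover 24.3 kb of kirre (6.18%) in 5 copies, and 0 summits of either list lay in them. Whether reads from such repeats could be placed was not tested. The stretch from CG14416 to rst (X:2871884-2973834, 102 kb) packs 17 protein-coding genes and held 1 IDR summit and 22 weaker pooled ones. That IDR summit lay 172 bp inside CG3588, with a signal of 239. The eye pigment transporter gene w, which also lies inside kirre, had its closest IDR summit 8967 bp from its start site.

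None of the IDR summits of kirre stood near a start site of kirre itself. The closest was the highest, 2335 bp upstream of the close pair of start sites. In the pooled relaxed list, too, 0 summits lay within 500 bp of a kirre start site. Counting start sites of any gene, 4 of the 24 summits (16.7%) lay within 500 bp, compared with 45.8% of all IDR summits. At the other extreme, 18 of 24 (75%) lay over 2000 bp from every start site, compared with 31.8% of all IDR summits. No test of these shares was made, as the gene was chosen with its peaks in view. The 4 near summits belonged to 3 neighbouring genes. A pair lay 178 and 332 bp upstream of start sites of Syx4, a syntaxin of membrane fusion that runs against kirre at its start, with signals of 510 and 316. The summit inside CG3588 is given above. The last, with a signal of 310, lay just beyond the end of kirre and 325 bp upstream of N (X:3134545), the gene of the receptor Notch. A weaker pooled summit, of 116, lay 122 bp upstream of N, and in replicate 3 both summits lay in the same peak.

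At rst, sns and hbs the windows held 1 IDR summit each, and at rst and sns it lay outside the gene. The rst summit at X:2978239 had a signal of 206 (rank 3426) and lay 4405 bp upstream of the rst start site, in an intron of kirre, so that it is counted for kirre as well. Without a flank rst itself held 0. The sns summit at 2R:8860102 had a signal of 154 (rank 4864). It lay in intergenic DNA beyond the end of sns, 262 bp upstream of RyR, the gene of the ryanodine receptor that releases calcium in muscle. With peaks kept only if they rank within the first 5786 of each remaining replicate list, sns had 0 IDR summits without replicate 2 and 0 without replicate 3, and 1 without replicate 1. The hbs summit at 2R:15034948 had a signal of 170 (rank 4319) and lay in an intron of hbs, 23.6 kb from its start, or 76.6% of the way along. All 3 signals were below the median of 233 for IDR peaks. The members therefore hold 26 distinct IDR summits.

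**Figure D2:**
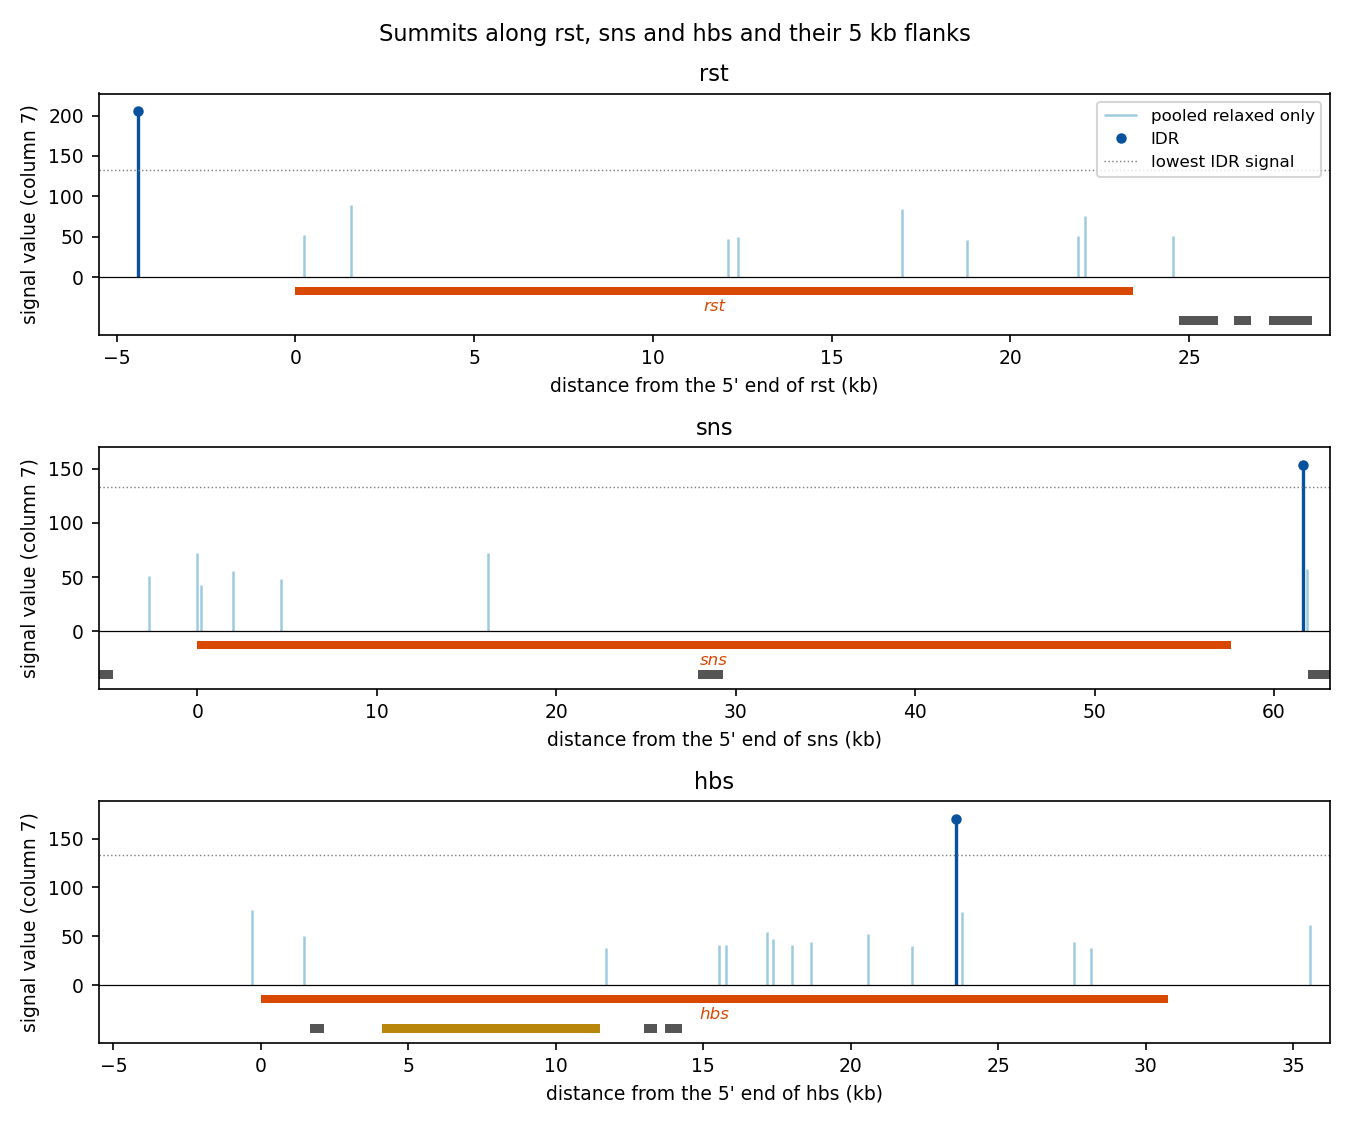
Signal value of every summit along rst, sns and hbs against the distance from the start of each gene in kb, drawn as for kirre; kirre, which spans the whole rst panel, is left out. The only IDR summit of rst lies 4405 bp before its start, that of sns beyond its end, and that of hbs inside the gene at 23.6 kb.

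All 4 members had an IDR summit in their windows, as did 53.4% of protein-coding genes, and all 4 had a pooled relaxed summit, as did 86.7%. None of the 4 had an IDR summit within 500 bp of a start site, against 22.6% of protein-coding genes. Among the summits inside each window, the nearest to a start site of the member was 2335 bp away at kirre, 4405 bp at rst, 23552 bp at hbs and 61613 bp at sns. Weak summits of the pooled relaxed list did lie at the start sites of the other 3 members. At sns a summit of 72.6 lay 5 bp and a summit of 42.2 lay 210 bp downstream of the start site, at rst a summit of 51.6 lay 254 bp downstream, and at hbs a summit of 76.6 lay 290 bp upstream. None of these 4 was found in the relaxed lists of all 3 replicates. The rst and hbs summits were each found in 2, and those of sns in 2 and 1.

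Every one of the 26 IDR summits lay in a peak of the relaxed list of each of the 3 replicates, as did 98.2% of all IDR peaks, so this is the usual state of an IDR peak. Replicate summits stood a median of 9.5 bp from the pooled summit over the 78 pairs, and at most 112 bp. Signal values cannot be set side by side between lists, because the highest peak of each list was 887, 1987 and 1353 in replicates 1, 2 and 3, so ranks are given. The highest kirre summit had signals of 179, 391 and 292 in replicates 1, 2 and 3, where it ranked 350, 231 and 300. It led the members in every replicate. The summit upstream of Syx4 at X:2744254 ranked 1209, 888 and 626, and the first of the pair in CG32795, at X:2786761, ranked 1096, 1084 and 866. These were high in all 3 lists as well. The summit between kirre and N ranked 2202, 1749 and 2357, within a narrow range.

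The single summits of the other members stood further down the lists. The rst summit ranked 2920, 4323 and 2832 in replicates 1, 2 and 3, furthest down in replicate 2. The hbs summit ranked 5052, 4192 and 5223. The sns summit ranked 7175, 5288 and 4650; in replicate 1 the peak that held it had its own summit 112 bp away, and that same peak also held a weaker pooled summit 60 bp upstream of RyR. The lowest kirre summit, X:3091139 with a pooled signal of 133, ranked 8025, 6449 and 5146. Among the 26 summits the median rank was 3059, 2592 and 2831, or 10.2%, 11.6% and 9.43% of the way down the lists. When the lists were shortened to their first 5786 peaks they kept 22, 25 and 22 of the 26. Across the 24 summits of kirre the Spearman correlation of signal was 0.825 between replicates 1 and 2, 0.887 between 1 and 3, and 0.823 between 2 and 3. This is a description across summits of the IDR list, which had already been picked for high signal in the pooled reads of these replicates.

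**Figure D3:**
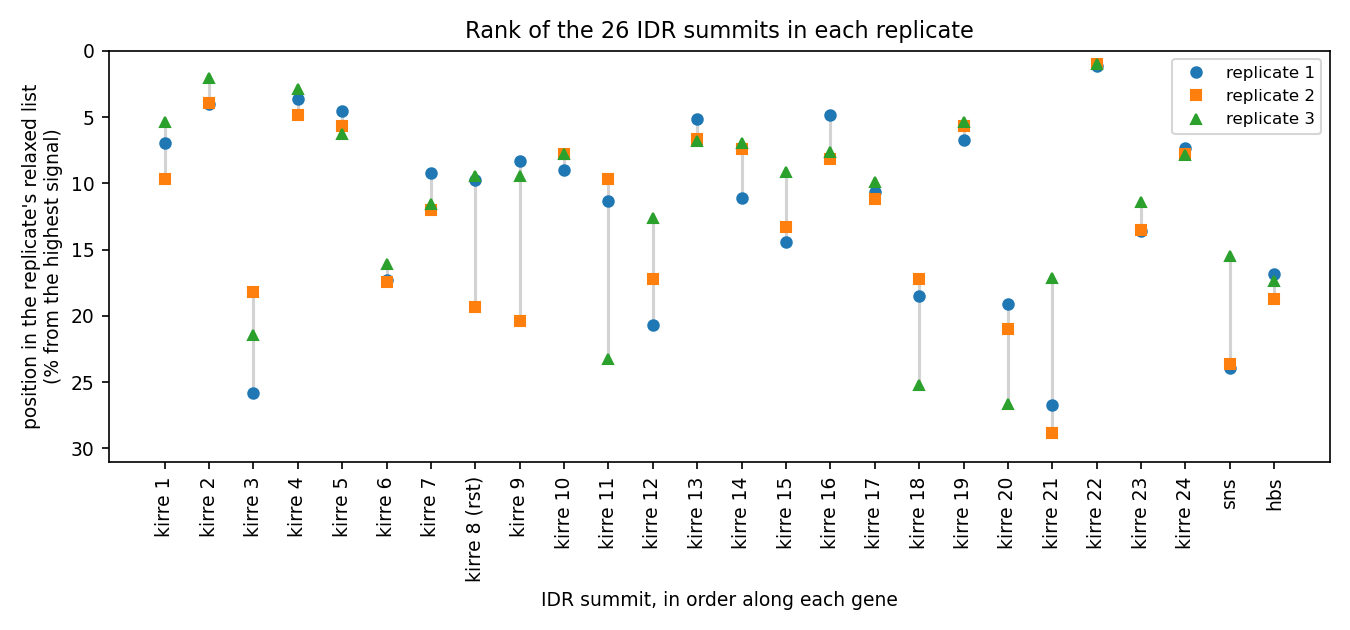
Rank of each of the 26 IDR summits in the relaxed list of each replicate, as a percentage from the peak of highest signal (top of the axis); circles, squares and triangles are replicates 1, 2 and 3, and grey lines join them. Summit 22 of kirre stays near 1% in all 3, while summits 8, 9, 11 and 21 of kirre spread more widely.

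Below the IDR threshold the pooled relaxed list added 121 distinct summits in the member windows. The counts were 99 at kirre, 9 at rst (all of them also in the kirre window), 7 at sns and 15 at hbs. At kirre the lowest IDR summit had a signal of 133.2 (rank 5772) and the highest pooled summit outside the IDR list 130.9 (rank 5864), so the edge of the list runs through a continuous range there. At the other members there was a gap, since the highest summits below the threshold were 89.5 at rst, 72.6 at sns and 76.6 at hbs. Of the 121, 40 (33.1%) lay in a peak of all 3 replicate lists, against 28.0% of all pooled peaks below the threshold. By gene the count was 38 of 99 at kirre, 3 of 9 at rst, 2 of 7 at sns and 0 of 15 at hbs. Adjacent weak summits can lie in the same replicate peak, as at the start of sns, so these are not all separate sites. A weak summit can also lie in a replicate peak that holds an IDR summit. The weak summit at X:3073896 shared its peak with the IDR summit at X:3073694 in all 3 replicates. How many of the 40 rest on such shared peaks was not counted. Past the 5 kb limit the next IDR summits lay a further 3017 and 23016 bp out at kirre, 25457 and 6545 bp at rst, 33708 and 46348 bp at sns, and 11094 and 7159 bp at hbs, on the side of lower and then of higher coordinates.

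The order of genes by IDR summits put kirre first with 24, followed by CG1677 with 19, sbb, a nuclear regulator of transcription, with 16, ush, a partner of GATA factors, with 15, and Raf, the kinase of the ERK pathway, and SNF4Agamma, a subunit of AMP-activated kinase, with 14 each. A long gene has more room for summits, and kirre, at 394 kb, was the fifth longest of these genes. The 4 longer genes, of 396 to 1966 kb, held 0 IDR summits and 2 pooled relaxed ones together. Of the 83 protein-coding genes of at least 100 kb, 67.5% had an IDR summit, with a median of 2. Per 100 kb of window kirre had 5.94 IDR summits, against a median of 1.6 and quartiles of 0 and 3.98 in these 83 genes, and stood 11th of the 83. The genes nearest to kirre by the count of IDR summits among these 83, and then by length, were CG1677 (19 summits, 124709 bp long), the tyrosine phosphatase gene Ptp61F (12, 132765 bp long) and the RNA-binding protein gene shep (12, 122124 bp long). Even the closest differed from kirre by 5 summits and by 269440 bp of length.

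The other members were ordinary in this order. Of 783 protein-coding genes of 20 to 60 kb, the range that holds rst, sns and hbs, 29.1% had no IDR summit, 21.2% had 1 and 49.7% had 2 or more. In the pooled relaxed list these genes had a median of 9 summits (quartiles 5 and 15), and rst had 10, sns 8 and hbs 16. Per 100 kb of window the pooled relaxed list held 30.4 summits at kirre, 29.9 at rst, 11.8 at sns and 39.3 at hbs. In IDR summits per 100 kb the order was kirre at 5.94, rst at 2.99, hbs at 2.45 and sns at 1.48, but each of the last 3 rests on a single summit.

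**Figure D4:**
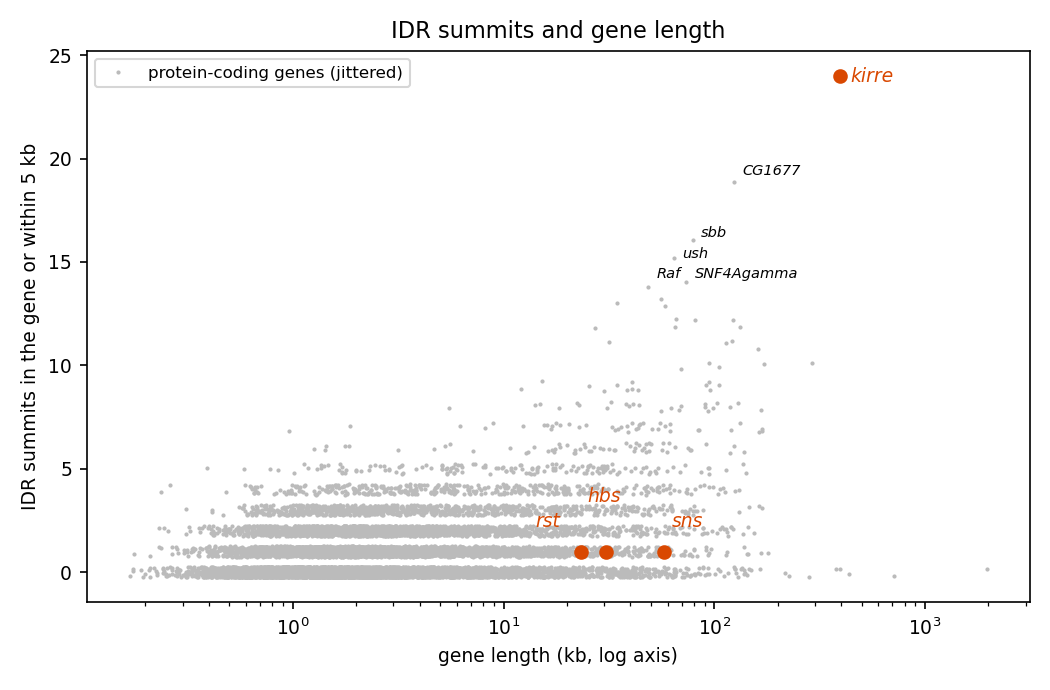
IDR summits in the gene or within 5 kb against gene length in kb (log axis) for 13945 protein-coding genes; grey points carry a small random vertical shift so that they do not overlap, and the members are orange without a shift. The point of kirre stands alone at 24, while rst, sns and hbs lie in the band of genes with 1 summit.

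Sequence within 100 bp of each of the 26 summits was searched on both strands for 12 motifs, beside all 5786 IDR summits and 664860 tiles of the same 201 bp over the arms. The E-box CANNTG, the site of basic helix-loop-helix factors such as Twist, occurred in 16 of 26 windows (61.5%), in 58.0% of all IDR windows and in 63.1% of tiles. Its form CACATG occurred in 5 of 26 (19.2%), against 6.57% of IDR windows and 8.89% of tiles. All 5 were at kirre, which holds 24 of the 26 windows. Within 50 bp CACATG occurred in 2 of 26 (7.69%), against 3.06% of IDR windows, and within 200 bp in 26.9%, against 15.5%. The form CATATG occurred in 2 (7.69%), against 7.09% and 5.49%. Both forms are E-boxes and are counted in them too. The site of Mef2, a factor of muscle differentiation, occurred in 4 windows (15.4%), against 13.2% and 6.45%. The repeat GAGAG of GAGA factor was found in 5 (19.2%), against 20.9% and 21.5%, the BEAF core CGATA in 6 (23.1%), against 27.1% and 21.4%, and the Zelda site CAGGTA in 1 (3.85%), against 3.92% and 4.6%. The other 5 motifs occurred in 0 of the 26, which allows a share of up to 11.5% and lies above their shares of 3.23% (DRE core, TATCGATA, which holds the BEAF core), 1.00% (Ohler motif 1), 5.60% (Ohler motif 7), 1.19% (CTCF core, AGGNGGCGC) and 1.66% (ZIPIC core, CAGGGCTG) of all IDR windows. In tiles these 5 occurred in 0.564%, 0.112%, 1.77%, 0.477% and 0.303%. Letters alone do not show a factor's binding. The GC content of the 26 windows had a median of 33.3% (25.9 to 42.3), close to 33.8% for all IDR windows and below 42.3% for tiles.

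Genes that act with these adhesion proteins were looked at through a list of 29 genes of myoblast fusion, of which 28 matched the annotation. An IDR summit lay in the window of 21 of the 28 (75%) and within 500 bp of a start site in 12 (42.9%), beside the 53.4% and 22.6% of all protein-coding genes given above; the median was 1 summit in the list and 1 over all genes. The 8 highest signals stood at Mef2 (1757), at Hem (874) and Abi (807), of the actin-nucleating WAVE complex, at mbc (803) and Ced-12 (532), which together activate Rac, at siz (592), an activator of Arf small GTPases, at sqh (498), the regulatory light chain of myosin, and at jeb (460), the ligand of the receptor Alk in visceral muscle. The highest summit lay in a peak of all 3 relaxed replicate lists in 19 of the 21 genes, and of only 2 lists at siz. In 10 of the 21 genes the highest summit was nearer to the start site of another gene. At Mef2 it lay 148 bp upstream of Pal1, at Hem 162 bp upstream of IleRS, at Abi 71 bp upstream of Polr2B, at siz 229 bp upstream of Polr3E and at Ced-12 182 bp upstream of ThrRS. From a start site of the listed gene itself it lay 1072, 308, 3300, 2939 and 5731 bp, in the same order. The Hem summit was thus within 500 bp of a start site of Hem as well as of IleRS. By contrast the highest summit was nearest to the gene's own start site at mbc, sqh and jeb, lying 1153, 105 and 16767 bp inside them. The 7 genes of the list without an IDR summit were Alk, Arpc1, Crk, Rac2, SCAR, sing and zip. The most summits in the list were 9 each, at siz and at pyd, a scaffold of cell junctions.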

How the data were processed

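The authors profiled 3 biological replicates by anti-GFP ChIP-seq. Per the labels, chromatin was sonicated to 200 to 800 bp. The narrowPeak lists in dm6 were used: 3 relaxed replicate lists, 1 from pooled reads and 1 thresholded by IDR, the relaxed lists made, per the deposited file notes, from the alignments and 1 further file common to all. The labels name a possible control experiment, which was not analysed here. Names of the caller and of the cutoff used in the IDR step are not given in the sources used here, and the dm3 lists were not used here. Column 7 of the deposited lists is a signal value per peak, never negative; it is compared between lists by rank only. Column 9, the −log10 q-value deposited by the authors, ran from 3.59 to 4.06 among IDR peaks; peaks were ranked by signal instead. The deposited column 10, an other kind of value, is the summit offset in bp; summit = start + offset, counted from 1.

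Genes, transcripts and start sites came from Ensembl BDGP6.54 (release 115), whose coordinates are those of dm6, and sequence from the RefSeq genome of the same assembly. A replicate supported a summit that lay inside one of its relaxed peaks; lists shortened to 5786 peaks served as an alternative. The depth is unknown, so no interval for depth was computed; the limit for a count of 0 is 3 counts and covers counting error only. Analyses used Python 3.11.15 with pandas 2.3.3 and numpy 2.4.6, and counting was tested on simulated data. The members and lists were chosen with earlier results of these data known. The genes named were the members, genes overlapping their windows where a summit or a gap concerned them, the 5 genes with the most IDR summits, the 3 nearest to kirre and the 8 highest of the fusion list; Syx4, CG3588, N, RyR and other neighbours of summits, the genes of the list with 0 summits, and pyd were named after their values were seen. No test was made, since there was 1 group and the members were chosen on these lists.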

Additional observations from a re-analysis of the deposited data

How the results depend on the processing

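Across 95 alternatives for 23 counts, ranks and shares, 70 stayed within 1.5 times the reported value and 25 did not. With only peaks at or above the median IDR signal the counts were 13 at kirre and 0 at rst, sns and hbs. With no flank or a 2 kb flank rst and sns held 0 IDR summits, and sns 5 pooled relaxed summits. With IDR peaks covered in all 3 shortened lists sns held 0. To leave out each replicate in turn, IDR peaks were kept if covered in both other shortened lists, and the IDR list itself was not made again. This gave 18 to 21 summits at kirre, where all 3 shortened lists gave 18. It gave 1 at rst and hbs and 0 to 1 at sns. The 0 at sns came without replicate 2 or 3, where the shortened list of replicate 1 was in use and the summit ranked 7175 in that replicate. Each time kirre was first, ahead of CG1677 with 15 to 17. Pooled relaxed summits covered in all 3 whole lists numbered 62, 4, 3 and 1 at kirre, rst, sns and hbs. Per kb, among genes of at least 100 kb, kirre ranked 11. Without each replicate in turn, alternatives added after seeing the data, 26 of the 26 summits lay in a peak of both other lists, and 0 members had an IDR summit within 500 bp of a start site. Both outcomes were fixed in advance. All 26 summits already lay in a peak of all 3 lists, and leaving out a replicate could only remove IDR peaks. These alternatives are among the 70 but say nothing about stability. The same holds for the 0 members within 250 bp of a start site and the 26 summits at a 1 bp overlap. It also holds for the 5 motifs with 0 windows within 100 bp, which had to have 0 within 50 bp. Within 50 bp of the summit the motif shares were 7.69% for the BEAF core, GAGAG and CACATG, 38.5% for the E-box and 0% for CATATG. Over all IDR windows of that width the shares were 15.3%, 8.92%, 3.06%, 33.6% and 3.72%, in the same order. Within 200 bp they were 34.6% for GAGAG and 11.5% for the Zelda site, against 42% and 8.02% of all IDR windows. A wider window holds more bases. No paired analysis was possible because the 3 replicates form 1 group. Without read counts, the limit that depth sets on the weak summits is unknown.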

Other observations

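Regulators that give founder cells their identity were looked at as a second list of 11 genes. An IDR summit lay in the windows of 5 of them (45.5%), compared with 53.4% of all protein-coding genes, and within 500 bp of a start site in 1 (9.09%), compared with 22.6%. The 5 were named after their values were seen. At Poxm, a Pax family gene, the highest summit had a signal of 653 and lay 397 bp upstream of its start site. At nau, the MyoD homologue, the window held 5 summits, the highest of 434, which lay nearer to CG10365. At kn, an EBF family gene, it held 4, the highest of 417 standing 36 bp upstream of BEAF-32. At vg the highest of 2 summits reached 390 and lay nearer to a start site of Nmda1, and at sd, its partner in transcription, the only summit had 140 and lay nearer to PGRP-LE. The 6 others, Kr, ap, eve, lbe, lbl and slou, had 0 IDR summits and 1 to 11 pooled relaxed ones.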
